A study of Mus musculus with 19 samples.

Results

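The lateral wall of the mouse cochlea was compared between macrophages and nonmacrophages, sorted from young mice by the green fluorescence of cells that carried green fluorescent protein (GFP) at the Cx3cr1 gene. The comparison rests on 2 of the study's 19 RNA sequencing libraries, identified by their labels: lateral wall macrophages (replicate 4, GFP-positive) and lateral wall nonmacrophages (replicate 16, GFP-negative). The comparison itself was chosen with earlier results of these data known. Both came from heterozygous CX3CR1 GFP/+ knock-in mice aged 1.5 months, and all other groups carried the same genotype, so no library came from a mouse without the knock-in. Set beside the pair were 1 macrophage and 1 nonmacrophage library of the young auditory nerve, and whole-cochlea libraries of 2 young macrophage, 4 young nonmacrophage, 4 old macrophage and 4 old nonmacrophage samples, old mice being 12 to 14 months old. Each isolate came from a single mouse, per the labels, which do not say whether the lateral wall sorts shared a mouse. The lateral wall nonmacrophage library held reads of Y-linked genes beside reads of Xist, the RNA of the inactive X chromosome, which is unusual for a single mouse. The nerve libraries and some of the whole-cochlea libraries also held both. RNA from another mouse was not tested. The GFP reporter is driven by the Cx3cr1 locus, which monocytes and some lymphocytes use as well as macrophages, so the positive gate is not exclusive to macrophages, and the negative gate holds every other cell.

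The lateral wall is made of the stria vascularis and the spiral ligament. Marginal cells of the stria secrete potassium into the endolymph, intermediate cells are melanocytes whose potassium channel sets up the endocochlear potential, and basal cells seal the stria from the ligament, where fibrocytes return potassium through gap junctions. A dense capillary bed runs through the stria, and its perivascular macrophages, which carry branched processes along vessels and contain pigment, are known for their contact with endothelial cells and pericytes.

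The values are read counts divided by a factor for each library, here called normalized reads. A value of 1 read was worth 1.53 normalized reads in either lateral wall library, so the values of the pair are close to proportional to reads. The macrophage library held 23.7 M reads in genes and the nonmacrophage library 21.5 M (M, mega), against 24.9 to 71.6 M in the sorted whole-cochlea libraries. With 1 library of each sort there is no replicate check and no test. Ratios are log2 of (macrophage value + 1) over (nonmacrophage value + 1), and the 95% intervals of fold differences are exact binomial intervals that cover counting error only.

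The sort was visible in the gene it was based on. Cx3cr1, which encodes the fractalkine receptor (mm10, chromosome 9, 119901616 to 120069879), had 11939 normalized reads in lateral wall macrophages and 35.2 in lateral wall nonmacrophages, a 339-fold difference (95% interval 226 to 536). This value checks the gate and is no finding. The genes that label the tissue were present in both sorts, and both were higher in macrophages. Lrp2, the endocytic receptor megalin of the marginal cell surface (chromosome 2, 69424340 to 69586065), had 64907 normalized reads in macrophages and 12945 in nonmacrophages, 5.01-fold more (interval 4.9 to 5.13). Kcne1, a subunit of the marginal cell potassium channel (chromosome 16, 92345982 to 92359468), had 19788 in macrophages and 8299 in nonmacrophages, 2.38-fold more (interval 2.31 to 2.46).

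Of 18639 genes in the table, 15185 had at least 10 normalized reads in either library of the pair. Of these, 1297 (8.54%) were at least 4-fold higher in macrophages and 2986 (19.7%) at least 4-fold lower, and the median log2 ratio was -0.11. These shares of all genes stand beside every list count of the pair given below. With quantile normalization the numbers were 2065 higher and 2255 lower. Macrophages had reads in 13883 genes and nonmacrophages in 15804. Reads were found in macrophages alone for 397 genes, and in nonmacrophages alone for 2318. Of the genes at least 4-fold lower, 1711 (57.3%) had no read in macrophages, whereas 215 (16.6%) of the genes at least 4-fold higher had no read in nonmacrophages. In bulk libraries, fewer cells of a type and less RNA per cell cannot be told apart.

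**Figure D1:**
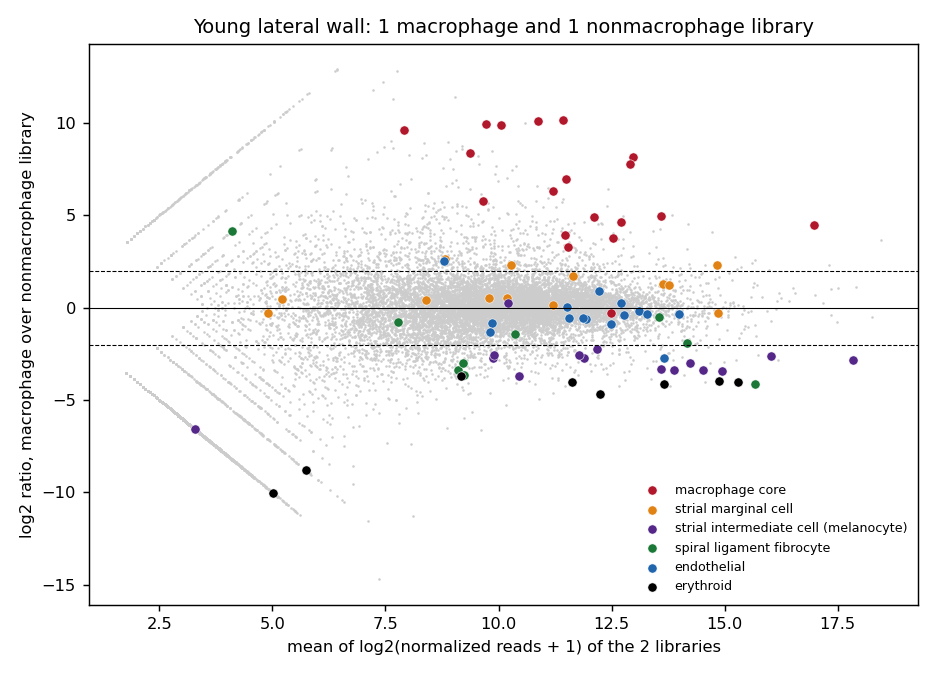
Each point is 1 of the 15185 genes, with the mean of its log2 values in both lateral wall libraries on the x axis and the log2 ratio of macrophages over nonmacrophages on the y axis. Coloured points are members of 6 gene lists, dashed lines mark 4-fold, and the diagonal streaks are genes with 0 or few reads in 1 library. Macrophage core genes lie high on the plot, marginal cell and endothelial genes near 0, and melanocyte and erythroid genes mostly below the lower line, as are 4 of 9 fibrocyte genes.

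Macrophage identity genes gave the clearest separation. Of 19 measured genes of the macrophage core list, 18 were at least 4-fold higher in macrophages and 0 lower, against 8.54% higher among all genes, with a median log2 ratio of 6.33. Cx3cr1, the gene of the gate, is among the 18 and is no finding, here or in the whole-cochlea count. Lyz2, which encodes lysozyme, had 600480 normalized reads in macrophages and 27565 in nonmacrophages. Csf1r, the receptor for the growth factor on which macrophages depend, had 135991 in macrophages and 474 in nonmacrophages (287-fold, interval 257 to 322). Ctss, a protease of antigen processing, had 114437 and C1qb, a chain of the first complement component, 91854 in macrophages, against 520 and 81.1 in nonmacrophages. The exception was Mertk, a receptor for the uptake of dying cells, with 5146 in macrophages and 6336 in nonmacrophages. Summed over the list, nonmacrophages held 3.3% of the macrophage level. In the whole cochlea, tested over all genes with limma, 18 of the 19 were called higher in macrophages at either age, against 9.18% of all genes called higher in the young and 9.25% in the old cochlea.

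Genes of perivascular-type macrophages followed the same direction, with 17 of 20 measured genes at least 4-fold higher and 1 lower. Mrc1, the mannose receptor CD206, had 18275 normalized reads in macrophages and a single read in nonmacrophages (fold interval 2144 to 472037). F13a1, a clotting factor subunit, had 50686 and the scavenger receptor gene Stab1 19462 in macrophages, against 595 and 376 in nonmacrophages. Gas6, a bridging ligand for receptors that take up dying cells, had 15271 in macrophages and 4933 in nonmacrophages. Lyve1, a hyaluronan receptor, had 2291 in macrophages and 21.4 in nonmacrophages. The C-type lectin gene Cd209b went the other way at low depth, with 0 reads in macrophages and 28 reads in nonmacrophages.

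Of 12 measured microglia-type genes, 8 were at least 4-fold higher in macrophages and 0 lower. Fcrls had 48490 normalized reads in macrophages and 47.4 in nonmacrophages (1023-fold, interval 720 to 1506), and the purine receptor gene P2ry12 had 10548 in macrophages and 19.9 in nonmacrophages. Tmem119, which marks microglia in the brain, had 10249 in macrophages and 3319 in nonmacrophages, short of 4-fold.

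Monocyte and dendritic cell genes were also on the macrophage side, 9 of 10 measured genes being at least 4-fold higher and 0 lower. Ccr2, the receptor that draws monocytes out of the blood, had 20534 normalized reads in lateral wall macrophages and 231 in lateral wall nonmacrophages (88.9-fold, interval 75.7 to 105). In whole-cochlea macrophages its mean was 1042 in the young and 1053 in the old, against 75.8 and 61.9 in nonmacrophages, and limma did not call it (young adjusted p = 0.161, old adjusted p = 0.0732). Ly6c2, a surface protein of inflammatory monocytes, had 18476 in lateral wall macrophages and 3904 in nonmacrophages. Whether the lateral wall differs from the whole cochlea in these genes was not tested.

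Antigen presentation genes stood on the macrophage side. Of 11 measured MHC class II genes, 8 were at least 4-fold higher and 0 lower, with a median log2 ratio of 4.04. Cd74, the invariant chain, had 89181 normalized reads in macrophages and 3935 in nonmacrophages. H2-Ab1, a class II chain, had 38109 in macrophages and 1245 in nonmacrophages (30.6-fold, interval 28.5 to 32.9).

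Most complement genes stood on the macrophage side. The list had 19 measured genes, of which 11 were at least 4-fold higher in macrophages and 4 at least 4-fold lower. Among all genes, 8.54% were higher and 19.7% lower, so the lower count is near the share of all genes. The 3 C1q chains and the complement receptors stood on the macrophage side: C1qc had 61977 normalized reads in macrophages and 56.6 in nonmacrophages, and C3ar1, the receptor for the C3a fragment, had 12084 in macrophages and a single read in nonmacrophages. C3, the central component, was 4.34-fold higher in macrophages, with 7073 against 1630 in nonmacrophages (interval 4.06 to 4.64). The 4 lower genes were C2 and C4b, components of the classical pathway, the protease gene C1ra, and Serping1, which encodes the C1 inhibitor. C2 had 2716 in macrophages and 15455 in nonmacrophages, C4b 1006 in macrophages and 6397 in nonmacrophages, and Serping1 2964 in macrophages and 14221 in nonmacrophages.

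Of 17 measured genes of Fc receptors and phagocytosis, 12 were at least 4-fold higher in macrophages and 0 lower. The low-affinity Fc receptor gene Fcgr3 had 36112 normalized reads in macrophages and 795 in nonmacrophages. Itgb5, an integrin chain, had 43169 in macrophages and 8281 in nonmacrophages, and Axl, a receptor for Gas6, had 28036 in macrophages and 5813 in nonmacrophages. Toll-like receptor genes had 8 of 13 measured genes higher and 0 lower. Tlr13, which recognises bacterial ribosomal RNA in mice, had 12754 in macrophages and 42.8 in nonmacrophages. The lysosome list had 11 of 26 genes higher and 0 lower, with a median log2 ratio of 1.34. Ctsd, the protease cathepsin D, had 359426 in macrophages and 73304 in nonmacrophages (4.9-fold, interval 4.86 to 4.95), while Lamp1, a lysosomal membrane protein, had 70246 in macrophages and 47701 in nonmacrophages.

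Chemokine ligand genes were mostly on the macrophage side. Of 23 genes, 14 were at least 4-fold higher in macrophages and 3 at least 4-fold lower. The shares of all genes were 8.54% higher and 19.7% lower, so the lower count is below the share of all genes. Ccl3 had 17436 normalized reads in macrophages and 48.9 in nonmacrophages, and its near neighbour Ccl4 12136 in macrophages and 27.5 in nonmacrophages. Both attract leukocytes, and as close relatives they may share reads. Ccl2, which binds Ccr2, had 7774 in macrophages and 29.1 in nonmacrophages. The 3 lower genes were Cx3cl1, Ccl11 and Ccl19. Cx3cl1, which encodes fractalkine, the ligand of Cx3cr1, had 1306 in macrophages and 5869 in nonmacrophages, 4.49-fold less (interval 4.17 to 4.84). Ccl11, eotaxin, had 222 in macrophages and 2678 in nonmacrophages.

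Of 12 measured ligands of macrophage receptors, 2 were at least 4-fold higher in macrophages, Ccl2 and C3, and 1 was at least 4-fold lower, Cx3cl1. Among all genes, 8.54% were at least 4-fold higher and 19.7% lower. Csf1 and Il34, the ligands of the receptor encoded by Csf1r, had 750 and 669 normalized reads in macrophages, against 1941 and 1245 in nonmacrophages. Cxcl12, the ligand of Cxcr4, had 5754 in macrophages and 11924 in nonmacrophages. Of 14 measured inflammatory cytokine genes, 4 were at least 4-fold higher in macrophages and 0 lower. Il1b had 6148 in macrophages and 314 in nonmacrophages (19.6-fold, interval 17 to 22.7). Il1a had 887 in macrophages and no read in nonmacrophages, 193-fold more when the nonmacrophage value is set to the floor of 3 reads. Of 20 growth factor genes for vessels and matrix cells, 1 was at least 4-fold higher and 5 lower, counts near the shares of all genes. The higher gene was Hgf, hepatocyte growth factor, with 773 in macrophages and 180 in nonmacrophages. Vegfa, the main growth factor of endothelial cells, was among the lower ones, with 351 in macrophages and 1659 in nonmacrophages. Igf1 had 12135 in macrophages and 5594 in nonmacrophages.

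Genes of lipid and iron handling were mixed. Apoe, the lipid carrier apolipoprotein E, had about 1280000 normalized reads in macrophages, a value the authors deposited with 3 digits, and 100267 in nonmacrophages. Pparg, a nuclear receptor of lipid metabolism, had 2245 in macrophages and 47.4 in nonmacrophages (47.4-fold, interval 33.2 to 70). Of 15 lipid genes, 7 were at least 4-fold higher and 1 lower, the lower one being the lipoprotein receptor gene Vldlr with 173 in macrophages and 1564 in nonmacrophages. Of 12 measured iron genes, 4 were at least 4-fold higher and 2 lower, against 8.54% higher and 19.7% lower among all genes. Slc40a1, ferroportin, the exporter of iron from cells, had 12830 in macrophages and 1026 in nonmacrophages. Slc11a1, an iron and manganese transporter of the phagosome, had 10000 in macrophages and 27.5 in nonmacrophages. Cp, the copper-bearing oxidase ceruloplasmin, had 9667 in macrophages and 46779 in nonmacrophages. Heph, its membrane-bound relative, had no read in macrophages and 281 in nonmacrophages.

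**Figure D2:**
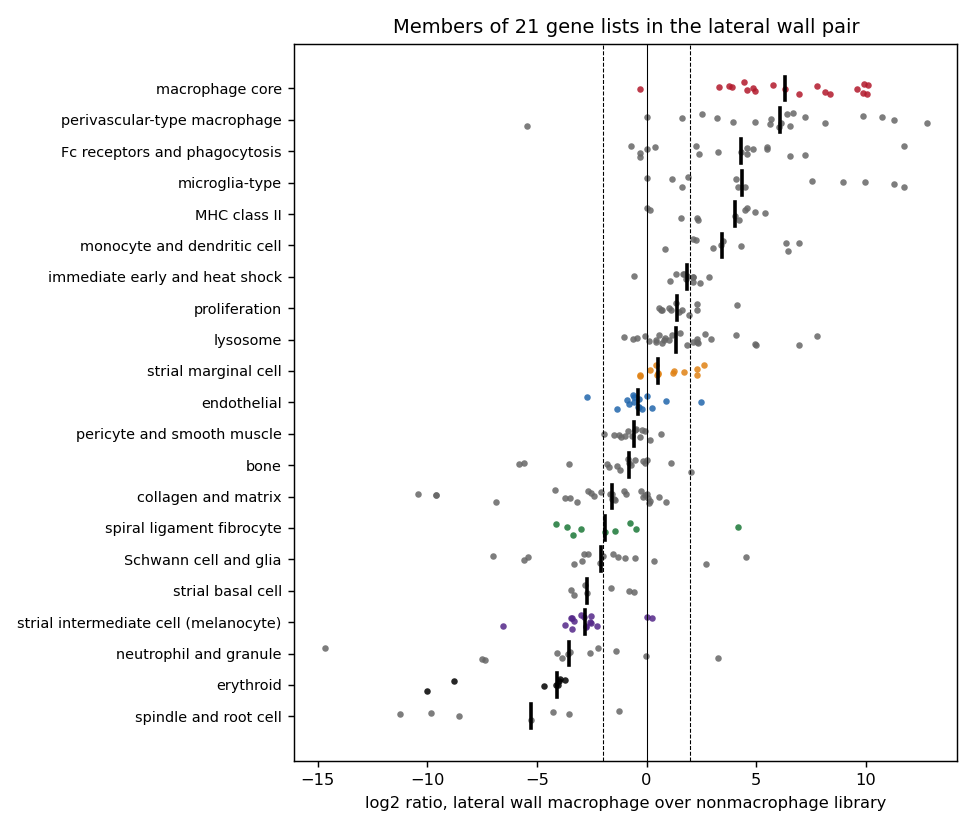
Each point is 1 measured gene of a list, placed at its log2 ratio of lateral wall macrophages over nonmacrophages. Black bars are list medians, the solid line marks 0 and dashed lines 4-fold. Medians run from 6.33 for the macrophage core to -5.29 for spindle and root cells, with marginal cell genes at 0.54 and endothelial genes at -0.41.

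The 12 genes with the highest ratios were taken from those with at least 200 normalized reads. Among them were Clec4a3, a C-type lectin receptor, with 7528 normalized reads in macrophages and none in nonmacrophages (at least 1641-fold), the chemokine gene Ccl12 with 7422 in macrophages and none in nonmacrophages (at least 1618-fold), and Ms4a4a with 7015 in macrophages and none in nonmacrophages (at least 1529-fold). Ms4a7 had 27520 in macrophages and 6 reads in nonmacrophages (fold interval 1378 to 8174), and Trem2, a lipid-sensing receptor, had 8730 in macrophages and a single read in nonmacrophages. The others were Mrc1, C3ar1, Havcr2, Lilra5, P2ry13, Cd209f and Clec4n. All 12 were also called higher in macrophages by limma in the whole cochlea at both ages. Clec4a, Ms4a and Cd209 genes lie in families of close relatives, and their separate values are uncertain where reads are shared.

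The 12 genes with the lowest ratios had at most 3 reads in macrophages. Ltf, the neutrophil granule protein lactoferrin, had no read in macrophages and 26559 normalized reads in nonmacrophages, at least 5780-fold less. Prg2, major basic protein of eosinophil granules, had a single read in macrophages and 7544 in nonmacrophages. Epyc, a matrix proteoglycan of the cochlea, had 3 reads in macrophages and 13643 normalized reads in nonmacrophages (2969-fold less, interval 1016 to 14401). The other 9 were Pcdhgb6, Cpxm1, Epha3, Rhd, Ust, Osbpl5, Gpr83, Sfrp1 and Pax3, which had no read in macrophages and from 1658 to 2377 normalized reads in nonmacrophages. Pax3 encodes a transcription factor of the melanocyte lineage and Rhd a red cell membrane protein. Pcdhgb6 shares exons with its gene cluster, so its reads cannot be assigned to it with certainty. In whole-cochlea macrophages, limma called Cpxm1, Epha3, Osbpl5, Gpr83 and Sfrp1 lower at both ages. It called Prg2, Epyc and Pax3 lower in the young alone, Ltf and Ust in the old alone, and Pcdhgb6 and Rhd at neither age.

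For marginal cell genes, most ratios were above 0. Of 13 marginal cell genes, 3 were at least 4-fold higher in lateral wall macrophages and 0 lower, 11 had a ratio above 0, and none had 0 reads in either library. Of the 15185 genes with the minimum, 8.54% were at least 4-fold higher, 19.7% were lower and 7019 had a ratio above 0. Lrp2 and Kcne1, which label the tissue, belong to the list, and Lrp2 is among the 3. Summed over the list, macrophages held 147530 normalized reads and nonmacrophages 70030. Lrp2 alone made up 64907 of the macrophage sum and 12945 of the nonmacrophage sum, and the median log2 ratio of the list was 0.54. Bsnd, which encodes barttin, had 1123 in macrophages and 182 in nonmacrophages (6.17-fold, interval 5.08 to 7.55). Kcnq1, the pore of the channel that Kcne1 belongs to, had 5840 in macrophages and 1769 in nonmacrophages (3.3-fold, interval 3.09 to 3.53). Slc12a2, the sodium, potassium and chloride cotransporter of the marginal cell, had 26582 in macrophages and 32895 in nonmacrophages. The part of marginal cells or their RNA in the macrophage library was not tested.

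Melanocyte genes lay on the opposite side. Of 16 genes of strial intermediate cells, 14 were at least 4-fold lower in macrophages and 0 higher, against 19.7% lower among all genes, with a median log2 ratio of -2.80. Dct, an enzyme of melanin synthesis, had 87357 normalized reads in macrophages and 625746 in nonmacrophages (7.16-fold less, interval 7.1 to 7.23). Gsta4, a glutathione transferase of these cells, had 26939 in macrophages and 162867 in nonmacrophages, and Slc45a2, a melanosome transporter, 9623 in macrophages and 103292 in nonmacrophages. Tyr, tyrosinase, had 6740 in macrophages and 54299 in nonmacrophages. Kcnj10, the channel of intermediate cells that is needed for the endocochlear potential, had 1464 in macrophages and 9879 in nonmacrophages. Kit, the exception, had 1288 in macrophages and 1098 in nonmacrophages. The list sum in macrophages was 13.4% of that in nonmacrophages, so melanocyte transcripts were present in both libraries.

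**Figure D3:**
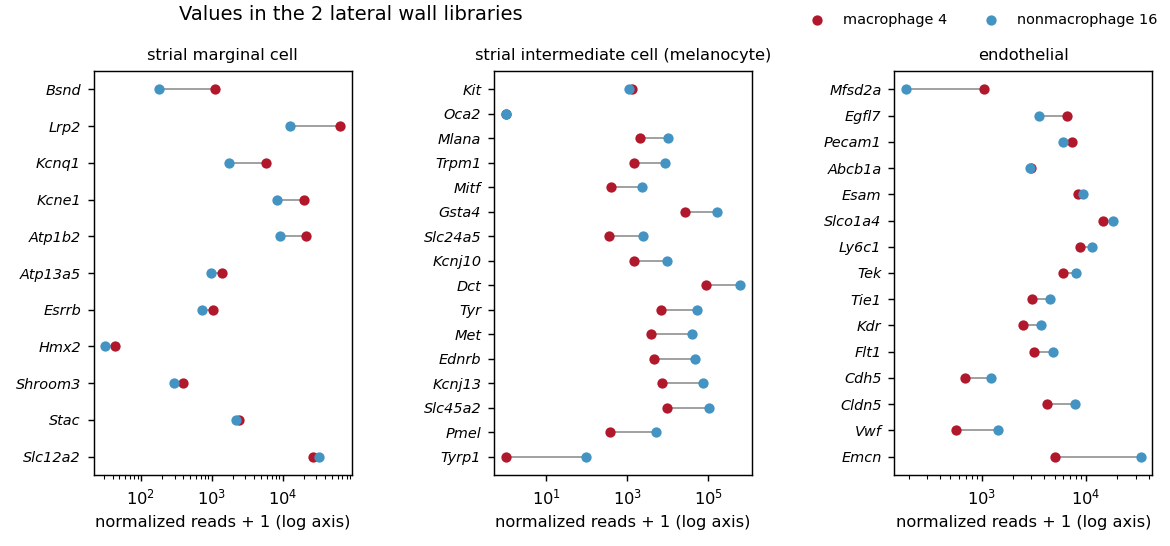
Normalized reads + 1 in lateral wall macrophages (red) and lateral wall nonmacrophages (blue) on a log axis, 1 row per gene and 11 of the 13 marginal cell genes drawn, with a line joining the values. Red points lie to the right of the blue for all marginal cell genes drawn except Slc12a2, and to the left for 14 of 16 melanocyte genes, while endothelial values lie close together except for Emcn and Mfsd2a.

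Basal cells, spindle and root cells and fibrocytes were on the nonmacrophage side. Of 7 basal cell genes, 4 were at least 4-fold lower and 0 higher. The gap junction genes Gjb2 and Gjb6 had 5616 and 7270 normalized reads in macrophages, against 39640 and 71425 in nonmacrophages. Slc2a1, the glucose transporter GLUT1, had 20912 in macrophages and 30816 in nonmacrophages. Of 7 spindle and root cell genes, 6 were at least 4-fold lower and 0 higher. Slc26a4, the anion exchanger pendrin, had 184 in macrophages and 7217 in nonmacrophages (39.3-fold less, interval 32.8 to 47.5). Of 9 fibrocyte genes, 4 were lower and 1 higher. Coch, cochlin, the abundant matrix protein of the spiral ligament, had 12473 in macrophages and 218026 in nonmacrophages (17.5-fold less, interval 17.1 to 17.9). The higher one was Slc13a3, a dicarboxylate transporter, with 47 reads in macrophages and 2 in nonmacrophages. Collagen and matrix genes numbered 12 of 28 lower and 0 higher. The proteoglycan genes Dcn and Lum had 6765 and 976 in macrophages, against 43562 and 10988 in nonmacrophages, while the basement membrane gene Col4a1 had 5540 in macrophages and 6151 in nonmacrophages.

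Most vessel genes were within 4-fold between the sorts, and most leaned to the nonmacrophage side. Of 15 endothelial genes, 1 was at least 4-fold higher in macrophages and 1 lower. A ratio below 0 was found for 11 of them and above 0 for 4, with a median log2 ratio of -0.41. The endothelial sum in macrophages was 64.1% of that in nonmacrophages. Pecam1, the junction protein CD31, had 7310 normalized reads in macrophages and 6062 in nonmacrophages, and Slco1a4, an organic anion transporter of the blood-brain barrier, 14441 in macrophages and 18165 in nonmacrophages. Emcn, a surface sialoprotein of capillary and venous endothelium, had 5037 in macrophages and 33484 in nonmacrophages (6.65-fold less, interval 6.41 to 6.9). Mfsd2a, a lipid transporter of barrier endothelium, had 1060 in macrophages and 187 in nonmacrophages. Of 14 pericyte and smooth muscle genes, none was 4-fold apart in either direction, and 12 had a ratio below 0. Rgs5 and Pdgfrb, which mark pericytes, had 26348 and 12565 in macrophages, against 36863 and 11329 in nonmacrophages, and the list sum in macrophages was 75.3% of that in nonmacrophages. The part of vessel cells or their RNA in the macrophage library was not tested.

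Erythroid and neutrophil genes were mostly lower in macrophages. All 8 measured erythroid genes were at least 4-fold lower: Hba-a1, a haemoglobin chain, had 9978 normalized reads in macrophages and 159894 in nonmacrophages, a value that is uncertain because of its near-identical copy Hba-a2. Of 12 measured neutrophil and granule genes, 9 were at least 4-fold lower and 1 higher. S100a8, a calcium-binding protein of neutrophils, had 1553 in macrophages and 18610 in nonmacrophages, and Ngp 2772 in macrophages and 40426 in nonmacrophages. The higher gene was Csf3r, the receptor for granulocyte growth factor, with 5884 in macrophages and 613 in nonmacrophages.

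Nerve genes were scarce in the lateral wall. The 16 genes of spiral ganglion neurons summed to 75 normalized reads in macrophages and 1838 in nonmacrophages, 9 of them had 0 reads in macrophages, and 10 were at least 4-fold lower with 0 higher. In whole-cochlea macrophages the same sum was far larger, from 173372 to 539397, against 10618 to 39709 in whole-cochlea nonmacrophages. There, limma called 12 of the 16 genes higher in young and 13 in old macrophages, against 9.18% and 9.25% of all genes. Of 16 genes of Schwann cells and glia, 8 were at least 4-fold lower in lateral wall macrophages and 2 higher. Among all genes, 19.7% were lower and 8.54% higher, so the higher count is near the share of all genes. The higher ones were Egr2, a transcription factor of myelination, with 1723 in macrophages and 71.9 in nonmacrophages, and Mag, a myelin glycoprotein, with 352 in macrophages and 53.5 in nonmacrophages.

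Promoter sequences of 3 genes are shown because their genes lie on opposite sides of the pair. Each is the 250 bases before the gene's start from RefSeq (GRCm38.p6), written 5′ to 3′ on the gene's own strand, and all lie on the minus strand: Tyr at chr7:87493513-87493762, Dct at chr14:118052247-118052496 and C1qc at chr4:136892915-136893164. Capitals mark the M-box TCATGTG, bound by the melanocyte factor MITF, and the ETS motif GAGGAAGT, of the kind bound by the myeloid factor PU.1. Each was searched in all 3 windows on both strands, so CACATGA and ACTTCCTC are the same motifs read on the opposite strand. Tyr and Dct held the M-box alone, and C1qc held both motifs.
Tyr: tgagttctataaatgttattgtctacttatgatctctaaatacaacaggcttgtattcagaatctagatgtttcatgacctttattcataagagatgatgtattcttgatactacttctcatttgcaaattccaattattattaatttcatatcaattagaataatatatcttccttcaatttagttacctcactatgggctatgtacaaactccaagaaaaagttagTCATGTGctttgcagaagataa
Dct: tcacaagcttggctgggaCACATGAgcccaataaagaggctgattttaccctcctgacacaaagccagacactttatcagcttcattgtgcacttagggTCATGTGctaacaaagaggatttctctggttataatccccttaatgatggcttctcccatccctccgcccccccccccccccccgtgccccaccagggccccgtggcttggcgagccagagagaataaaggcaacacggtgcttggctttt
C1qc: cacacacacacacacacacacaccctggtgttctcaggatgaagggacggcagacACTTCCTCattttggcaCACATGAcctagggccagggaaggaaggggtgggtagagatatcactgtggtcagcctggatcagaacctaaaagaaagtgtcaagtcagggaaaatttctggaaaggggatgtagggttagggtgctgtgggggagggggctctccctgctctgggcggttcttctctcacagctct

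The M-box in Tyr begins 22 bases before the start, and those in Dct begin 151 and 232 bases before it. In C1qc the M-box begins 178 and the ETS motif 195 bases before the start. Of the 16 melanocyte genes, 12 had a promoter in the RefSeq table, and 6 of these held an M-box: Dct, Kcnj13, Slc24a5, Trpm1, Tyr and Tyrp1. The M-box was also found in 2 of 13 promoters (15.4%) of macrophage core genes, C1qb and C1qc. It was in 35 of 1002 promoters (3.49%) of genes at least 4-fold higher in macrophages, in 64 of 2209 (2.9%) of genes at least 4-fold lower, and in 2.33% of the 11722 promoters of genes with the minimum, so its share was no lower among the higher genes. The ETS motif was found in 72 of 1002 promoters (7.19%) of genes at least 4-fold higher in macrophages, in 46 of 2209 (2.08%) of genes at least 4-fold lower, and in 3.02% of the 11722. Of the macrophage core promoters, 1 of 13 held the ETS motif, that of C1qc shown above. A match of letters is not a bound site, and these shares carry no test.

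In the whole cochlea, tested with limma, Kcne1 was also higher in macrophages. Its values were 14464 and 5790 normalized reads in young macrophages, against 1047, 2570, 3485 and 4893 in young nonmacrophages. In the old cochlea they were 11657, 3327, 3531 and 3809 in macrophages, against 2120, 1136, 1312 and 1076 in nonmacrophages. No macrophage value overlapped with a nonmacrophage value at either age. The log2 difference was 1.81 in the young (SE 0.63, limma adjusted p = 0.0432) and 1.81 in the old cochlea (SE 0.51, limma adjusted p = 0.0262). The young call was lost by limma without macrophage replicate 9 (log2 difference 1.15, adjusted p = 0.303) and without nonmacrophage replicate 5, 6 or 14 (adjusted p = 0.0865, 0.0508 and 0.0717). It was also lost by limma with quantile normalization (1.49, adjusted p = 0.0696), with library quality weights (2.19, adjusted p = 0.815) and in a fit of only the groups compared (1.81, adjusted p = 0.158). The old call was lost without macrophage replicate 1 (1.39, adjusted p = 0.078) or nonmacrophage replicate 11, 18 or 19 (adjusted p = 0.0697, 0.0628 and 0.0721).

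Lrp2 missed the threshold in the whole cochlea, a result that changed with the processing. It had 10044 and 11207 normalized reads in young macrophages, against 2553, 3003, 4086 and 13965 in young nonmacrophages, which overlapped (log2 difference 1.21, SE 0.64, limma adjusted p = 0.164). Old macrophages had 37387, 13237, 8048 and 10778, against 8034, 5753, 5609 and 5961 in old nonmacrophages, all macrophage values lying above (1.2, SE 0.52, limma adjusted p = 0.136). Without young nonmacrophage replicate 14, the highest of its group, limma called Lrp2 higher in young macrophages (1.75, adjusted p = 0.0211). It was called higher in old macrophages with library quality weights (1.05, limma adjusted p = 0.00966) and in a fit of only the groups compared (1.2, limma adjusted p = 0.0236). Over the 13 genes of the marginal cell list, 1 gene was called higher and 3 lower in young macrophages, and 1 higher and 0 lower in old macrophages. Among all genes, 9.18% were called higher and 22.3% lower in the young cochlea, and 9.25% higher and 9.36% lower in the old, so the young counts are near the shares of all genes.

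In the auditory nerve pair these genes were the other way round. Lrp2 had 4.96 normalized reads in nerve macrophages (3 reads) and 1643 in nerve nonmacrophages, and Kcne1 a single read in nerve macrophages and 57.3 normalized reads in nerve nonmacrophages. The median log2 ratio of the marginal cell list was -3.45 in the nerve, with 9 of 13 genes at least 4-fold lower and 0 higher, against 24.6% lower and 11.7% higher among all genes of the nerve pair. The sum of the 13 genes was 1885 in nerve macrophages and 20364 in nerve nonmacrophages. The difference between the lateral wall and the nerve was not tested, since each had 1 library of each sort.

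**Figure D4:**
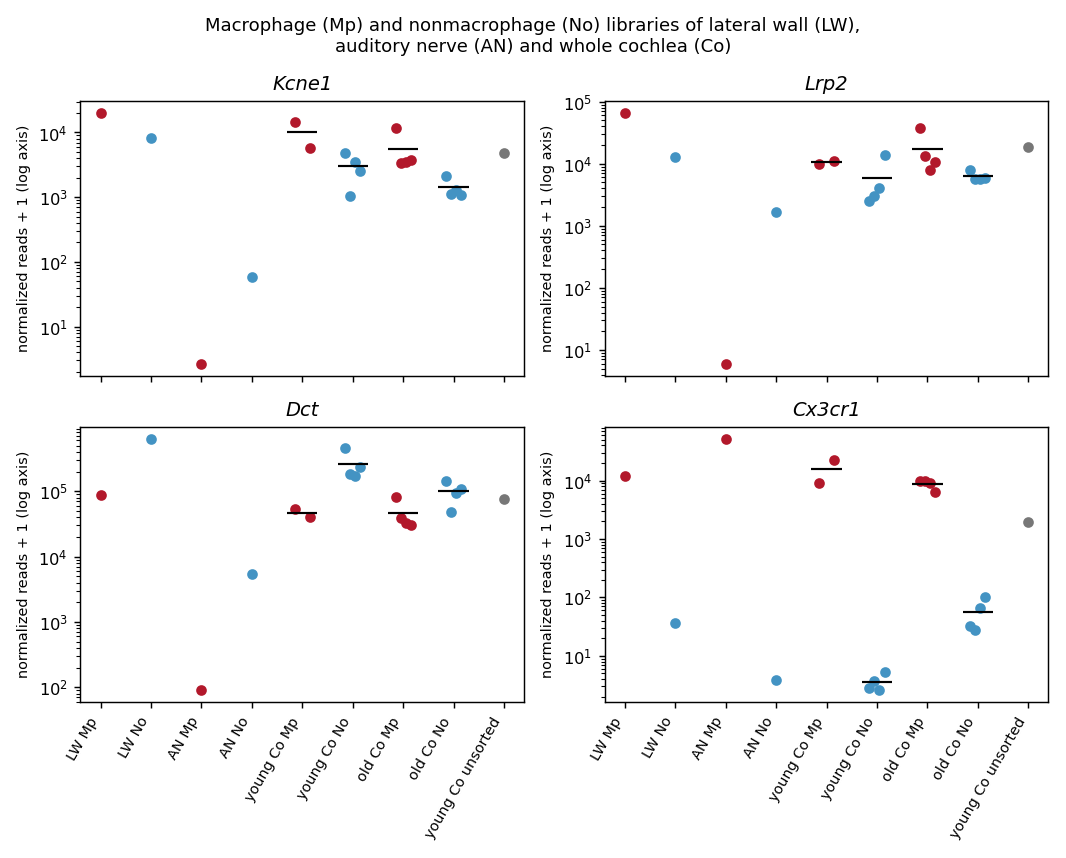
Normalized reads + 1 of Kcne1, Lrp2, Dct and Cx3cr1 in all 19 libraries on log axes, by tissue and sort, with black bars at group means where a group has several libraries. Lateral wall macrophages had the highest Kcne1 and Lrp2 values of the 19 libraries, at 19788 and 64907, while nerve macrophages were the lowest for both.

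For the genes of the other lateral wall cells, the limma results of the whole cochlea are given beside the pair. Dct was lower in young macrophages (log2 difference -2.37, SE 0.50, adjusted p = 0.003) and missed the threshold in old macrophages (-1.12, adjusted p = 0.0732). In old macrophages limma called Dct lower with quantile normalization (adjusted p = 0.0281), with library quality weights (adjusted p = 0.00256) and in a fit of only the groups compared (adjusted p = 0.0252). It was also called lower by limma without old macrophage replicate 1 (-1.44, adjusted p = 0.0282) or old nonmacrophage replicate 11 (-1.44, adjusted p = 0.0292). Coch was lower in macrophages by limma at both ages (-2.92 in the young, adjusted p = 0.000171, and -2.97 in the old, adjusted p = 8.22e-05). Emcn was lower at both ages as well (-2.05 in the young, adjusted p = 0.000671, and -3.15 in the old, adjusted p = 1.57e-05). Of the 16 melanocyte genes, 12 were called lower in the young and 4 in the old cochlea, beside 22.3% of all genes called lower in the young and 9.36% in the old. Of 15 endothelial genes, 6 were called lower in the young and 8 in the old cochlea with 0 higher at either age, and their median log2 difference was -2.05 in the young and -2.49 in the old cochlea. The median over all genes tested was -0.61 in the young and -0.19 in the old cochlea.

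**Figure D5:**
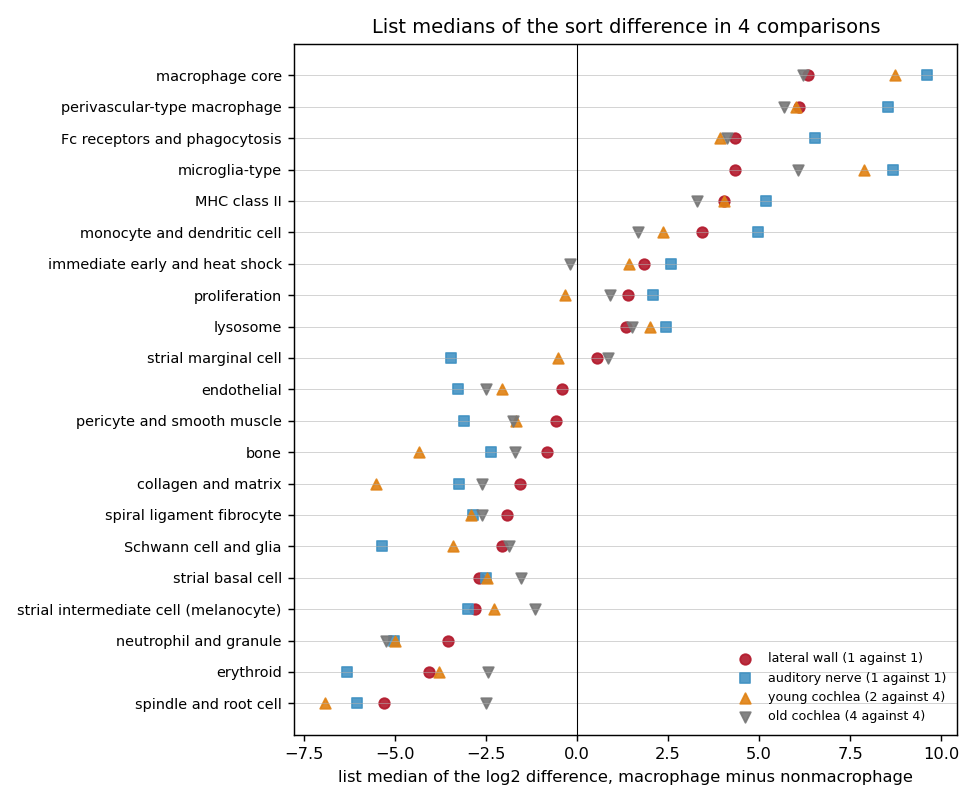
Median log2 difference, macrophages minus nonmacrophages, over the measured genes of each list in the lateral wall pair, the auditory nerve pair and the young and old whole cochlea. In the lateral wall the endothelial median is -0.41 and the pericyte median -0.59, against -3.27 and -3.12 in the nerve, and the marginal cell median is 0.54 against -3.45 in the nerve.

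Across all genes, the lateral wall pair was set beside the other places. Of the 1297 genes at least 4-fold higher in lateral wall macrophages, 811 were so in the nerve pair, which is 62.5% of the lateral wall genes and 44.1% of the 1840 nerve genes, and 97 (7.48%) were at least 4-fold lower there. Of the 2986 lower genes, 1599 were shared, 53.5% of the lateral wall genes and 41.2% of the 3885 nerve genes, and 114 (3.82%) were opposite. The whole-cochlea fit covered 1288 of the higher genes, of which limma called 494 (38.4%) higher and 88 (6.83%) lower in the young cochlea, and 444 (34.5%) higher and 27 (2.1%) lower in the old cochlea. It covered 2954 of the lower genes and called 1285 (43.5%) lower and 119 (4.03%) higher in the young, and 516 (17.5%) lower and 156 (5.28%) higher in the old cochlea.

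Some genes were called in the opposite direction at both ages. Of the higher genes, 11 (0.854%) were called lower in whole-cochlea macrophages at both ages, against 5.54% of all genes, among them Mag (limma log2 difference -2.96 in the young, adjusted p = 0.00158, and -3.75 in the old cochlea, adjusted p = 0.000135) and S1pr5, a sphingosine phosphate receptor. S1pr5 had 792 normalized reads in lateral wall macrophages and none in lateral wall nonmacrophages. Of the lower genes, 84 (2.84%) were called higher at both ages, against 5.14% of all genes. Both shares are below those of all genes. Of the 84, Stmn3, a stathmin of neurons, had 1548 in lateral wall macrophages and 13193 in lateral wall nonmacrophages, while limma gave a log2 difference of 2.06 in the young (adjusted p = 0.0211) and 4.34 in the old whole cochlea (adjusted p = 7.31e-05). The genes named here were chosen after their values were seen.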

How the data were processed

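RNA was sequenced from GFP-sorted cochlear cells of CX3CR1 GFP/+ mice. Per the labels' protocols, RNA was purified with RNeasy Micro, isolates of low quality were dropped, libraries were made with SMARTer Ultra and Nextera XT and sequenced on an Illumina HiSeq, and a subset went through a second round of sequencing. TopHat2, Partek, DESeq2 and the mm10 build are listed in the submitters' processing notes with no version numbers. The authors deposited a signal value for each of 18639 gene symbols in each library. The values behave as read counts scaled by 1 factor per library. Reads were recovered from that spacing: 100% of values under 10000 reads came out whole within 0.1 read, and at least 99.7% of all values in each library. The authors gave the very largest values with 3 digits. Strand use in counting is not given in the sources used here.

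The lateral wall pair was described by log2 ratios on value + 1 for genes with at least 10 in either library, past a fold of 4, with exact conditional binomial (Clopper-Pearson) 95% intervals from recovered reads. Where 1 library had no read, fold values used a floor of 3 reads, which is 4.59 normalized reads in either library. The limit of the 95% interval can lie below such a fold value. Intervals and floors reflect counting error alone, because no molecular identifiers are named for these libraries. The 14 sorted whole-cochlea libraries were fitted with limma 3.58.1 (trend and robust variance) on log2(value + 1) with 4 group means, for the 18441 genes that reached 1 in 2 or more libraries, and called at a Benjamini-Hochberg adjusted p under 0.05. A fold change on this scale understates the change of low genes. The design had allowed for counts or normalized values. The limma step was tested on simulated data. edgeR 4.0.16 (quasi-likelihood) on the recovered reads called 1776 genes higher and 3166 lower in young macrophages, and 1623 higher and 1333 lower in old macrophages. DESeq2 1.42.0 was a further alternative.

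Replicates differed by more than sampling noise in every pair of libraries within a group. Nothing beyond 1 mouse per isolate is stated about their independence. Gene positions came from GENCODE M21 (mm10), which held 18294 of the symbols. Named genes were the 12 highest and 12 lowest ratios among genes with at least 200 normalized reads, without predicted, clone, Xist and Y-linked symbols, Cx3cr1, Lrp2 and Kcne1, and members of the lists with high values or the opposite direction. Some further list members were named with their values known. The comparison, its genes and the 39 gene lists were chosen with earlier results of these data known. Of 514 different list genes, 490 were measured and 24 are not analysed here. A few list members are not reported here.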

Additional observations from a re-analysis of the deposited data

Results flagged for a closer look

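Among 17 genes looked at in each of the 3 whole-cochlea groups of 4 libraries, 13 values stood far from the other 3 of their group by Dixon's criterion. For normally distributed values, chance flags about 1 in 20 groups. The values here were not on a log scale and the genes share libraries, so that rate cannot be set against the 13. Old macrophage replicate 1 was the highest of its group in 7 of these, with 970 normalized reads of Bsnd, 81767 of Dct, 11657 of Kcne1, 4885 of Kcnq1, 35069 of Slc12a2, 10632 of Slc45a2 and 6981 of Tyr, so that marginal cell and melanocyte genes were high in the same library. Young nonmacrophage replicate 14 was the highest of its group for Lrp2 (13965) and Bsnd (145), replicate 5 for Coch (362711) and replicate 2 for Kcnj13 (86847). Old nonmacrophage replicate 10 was the highest for Lrp2 (8034) and replicate 18 for Coch (95176).

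Cx3cr1, the gene of the sort, had a sort difference that was smaller in the old than in the young whole cochlea, by -4.59 on the log2 scale (limma interaction, adjusted p = 0.00369). Old nonmacrophages averaged 56.2 ± 34.7 normalized reads of Cx3cr1 and young nonmacrophages 2.6 ± 1.22 (SD, n = 4 each), and lateral wall nonmacrophages had 35.2.

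The lateral wall and auditory nerve pairs pointed in opposite directions for 3 marginal cell genes, a difference that was not tested. The log2 ratio of Lrp2 was 2.33 in the lateral wall and -8.11 in the nerve, that of Kcne1 1.25 in the lateral wall and -4.46 in the nerve, and that of Kcnq1 1.72 in the lateral wall and -2.99 in the nerve.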

How the results depend on the processing

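For the lateral wall pair, quantile normalization gave 2065 genes at least 4-fold higher in macrophages and turned the log2 ratios of Ugt8a (1.73) and Nefh (0.48) above 0. A minimum of 100 left 1589 lower genes, and a 2-fold limit gave 2774 higher genes. Scaling to the total moved the median log2 ratio of genes with at least 10 normalized reads in either library to -0.25. It made the median of the T and NK cell list -0.04, against 0.11 as deposited. The medians of the other lists kept their sign with TMM factors, quantile normalization and total scaling. Of all alternatives for single lateral wall genes, 2517 values stayed within their counting interval, 517 moved outside it and 2 were reversed. Reversal was counted only for genes at least 4-fold apart as deposited, so sign changes of smaller ratios are not among the 2. The causes were not tested.

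In the whole cochlea, library quality weights gave 33 higher and 542 lower genes in the young, and 4745 higher and 6422 lower in the old. Under these weights no young call of Kcne1, Dct, Coch or Emcn held (limma adjusted p = 0.815, 0.806, 0.364 and 0.392). Fits of only the groups compared gave 341 and 1085 in the young, and 4546 and 6108 in the old. Leaving out 1 library at a time gave 1641 to 2456 higher and 3262 to 5528 lower genes in the young, and 1220 to 1321 higher and 1140 to 1335 lower in the old. Where this left 1 young macrophage library, it was assumed to vary like the other groups. DESeq2 gave 2298 and 4648 in the young, and 2215 and 2350 in the old. No paired analysis was possible because each library has its own replicate number, which cannot show which sorts shared a mouse.

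The lateral wall pair has 1 library of each sort, so its ratios hold for these libraries and not for the sorts at large. At 21.5 to 23.7 M reads, a gene with no read was below 3 reads, or 4.59 normalized reads. The depth of old libraries was higher than that of most young ones, so age and depth cannot be told apart.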

Other observations

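Proliferation genes were all on the macrophage side of the lateral wall pair, 12 of 12 having a log2 ratio above 0 and 3 being at least 4-fold higher. Among all genes, 8.54% were at least 4-fold higher. Top2a, a topoisomerase of dividing cells, had 5918 normalized reads in macrophages and 1197 in nonmacrophages, Bub1, a mitotic checkpoint kinase, 2230 in macrophages and 125 in nonmacrophages, and Mki67 1529 in macrophages and 1035 in nonmacrophages. Immediate early and heat shock genes, which respond quickly to stimulation, had 5 of 12 measured genes at least 4-fold higher and 0 lower: Fos had 115189 in macrophages and 21410 in nonmacrophages, and Hspa1a 1291 in macrophages and 1927 in nonmacrophages.

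Genes of lymphocytes were mixed. Of 14 measured T and NK cell genes, 4 were at least 4-fold higher in macrophages and 1 lower, against 8.54% and 19.7% among all genes. Cd4, which mouse myeloid cells can also express, had 3662 normalized reads in macrophages and 79.5 in nonmacrophages, and Gzmb, granzyme B, 908 in macrophages and 16.8 in nonmacrophages. Of 6 measured B cell genes, 3 were at least 4-fold lower and 0 higher. Ms4a1, a B cell surface protein, had no read in macrophages, against 479 normalized reads in nonmacrophages. Of 7 measured mast cell and basophil genes, 1 was at least 4-fold higher and 0 lower, and the median log2 ratio was 0. The higher one was Mcpt8, a basophil protease, which had 2100 in macrophages and 67.3 in nonmacrophages.

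Of the bone genes, 3 of 16 were at least 4-fold lower in macrophages and 1 higher, counts close to the 19.7% lower and 8.54% higher among all genes. Spp1, osteopontin, had 360349 normalized reads in macrophages and 165404 in nonmacrophages, and Ibsp, bone sialoprotein, 29074 in macrophages and 41514 in nonmacrophages. Of 14 hair cell genes, 10 had no read in macrophages, 6 were at least 4-fold lower and 1 higher. The higher one was Myo7a, a myosin, with 4226 in macrophages and 448 in nonmacrophages.

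Y-linked genes had reads in both libraries, Ddx3y having 865 normalized reads in macrophages and 1691 in nonmacrophages. Xist, which is transcribed from the inactive X chromosome, had 15.3 in macrophages and 168 in nonmacrophages. Other libraries held both kinds too, with 692 of Xist and 2310 of Ddx3y in nerve macrophages. Old whole-cochlea nonmacrophage replicate 18 had 589 of Xist and 2145 of Ddx3y. Not all did, young whole-cochlea macrophage replicate 9 having 2930 of Xist and 0 of Ddx3y. Reads of both kinds in a library are unusual for the single mouse that the labels give per isolate, and RNA from another mouse was not tested.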
